A study of Mus musculus with 6 samples.

Results

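Control mesenchymal stromal cells (MSCs) are described here at the level of their transcriptome. The deposited table holds RNA-seq counts of 6 libraries. Of these, the 3 labelled MSC_1, MSC_2 and MSC_3 with the description control were taken and are named Ctl MSC 1, 2 and 3. The study tested whether MSCs given the subunits of the thymoproteasome, a proteasome of thymic epithelium, can present antigens they take up. The Ctl MSC were its control cells, and the other 3 libraries were not used here. MSCs were flushed from the femurs of female C57BL/6 mice aged 6 to 8 weeks, grown as adherent cells in AMEM with serum and antibiotics, and transduced at passage 5 with a retrovirus. The Ctl MSC carried the empty AP2 construct, which codes for eGFP and no proteasome subunit, and no further treatment is given in the labels. Polyadenylated RNA was sequenced from both ends after a stranded library preparation. Neither the labels nor the methods say whether the 3 libraries came from separate mice, cultures or transductions, so the spread between them may be technical.

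MSCs are adherent, fibroblast-like cells of the marrow stroma that can be steered in culture to bone, cartilage or fat. In the marrow they lay down collagen-rich matrix and make the cytokines that hold blood stem cells in place. They are recognised by a set of surface proteins together with the absence of blood and endothelial proteins, and each of these groups of genes was followed in turn.

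The depth of the libraries was 16158756 to 18305922 reads on genes, or 79.2% to 83.0% of all reads listed. Levels are given as CPM, the reads of a gene scaled to a common total of reads on genes, in the order Ctl MSC 1, 2 and 3 wherever 3 values stand together. CPM is a share of reads, which grows with the length of a transcript, so an order by CPM is one of reads taken. Levels of different genes were compared by CPM per kilobase of exon (RPKM), as mean ± SD over the 3 libraries. A gene was called detected at 3 reads, which is 0.164 to 0.186 CPM and covers counting error only. Of 23420 genes, 12562 reached 3 reads in every library, 12014 of them protein coding, and 7412 had no read in any. The mean level was at least 1 CPM in 11569 genes, at least 100 CPM in 2343 and at least 1000 CPM in 104.

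One library stood apart. Over the 11569 genes with a mean of at least 1 CPM, Pearson's r of log2 CPM across genes was 0.918 between Ctl MSC 1 and 2, 0.922 between 1 and 3, and 0.997 between 2 and 3. Genes are not independent replicates, and these values are a description. The coefficient of variation between libraries beyond counting noise, estimated by edgeR for all genes together, was 0.352 for the 3 libraries and 0.0475 without Ctl MSC 1. It was 0.413 without Ctl MSC 2 and 0.420 without Ctl MSC 3. Ctl MSC 2 and 3 still differed by more than sampling noise, with a mean chi-square of 4.76 per gene on 1 degree of freedom (median 0.912), and were kept as separate libraries. The same measure was 172 between Ctl MSC 1 and 2 and 161 between 1 and 3.

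In 2484 of the 11569 genes, which is 21.5%, the highest library was at least 2-fold above the lowest. Ctl MSC 1 alone lay at least 2-fold above both others in 1137 genes (9.83%) and below both in 821 (7.1%). Ctl MSC 2 did so in 15 (0.13%) and 7 (0.0605%), and Ctl MSC 3 in 2 (0.0173%) and 18 (0.156%). Without Ctl MSC 1, 47 genes had a 2-fold range. The median ratio of highest to lowest library was 1.42 over all 11569 genes, and 1.06 between Ctl MSC 2 and 3. Ctl MSC 1 also held more reads of Rn45s, the precursor of ribosomal RNA, with 1.61%, 0.353% and 0.487% of reads on genes, and its share of reads that mapped to more than one place was 8.88% against 7.98% and 7.58%. Their part in the differences between libraries was not tested. Levels below are therefore given per library, and for many groups also without Ctl MSC 1.

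**Figure D1:**
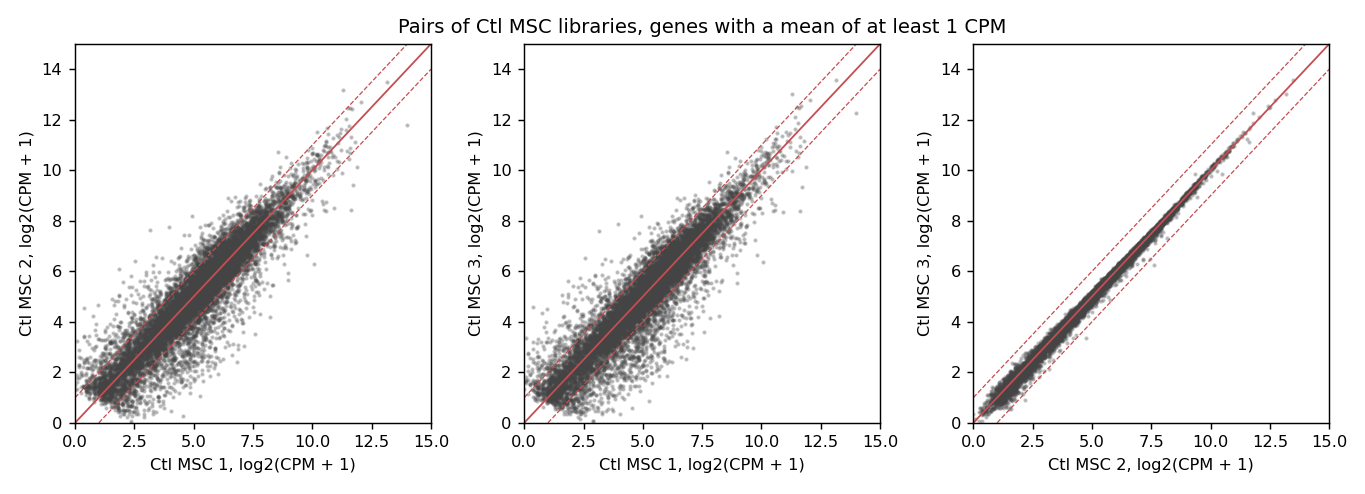
Each panel sets log2(CPM + 1) of a pair of Ctl MSC libraries against each other for the 11569 genes with a mean of at least 1 CPM, 1 point per gene, with the line of equality (solid) and a 2-fold difference (dashed). Ctl MSC 2 and 3 lie close to the line, whereas both panels with Ctl MSC 1 hold a wide cloud.

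The most abundant transcripts were those of protein synthesis, protein folding and iron storage. By mean CPM, Rn45s ranked 2 at 16126, 3531 and 4870 CPM, and no exon length was at hand for it. The matrix gene Fn1 ranked 3 by mean CPM but 53 per kilobase of exon. The 10 genes with the highest mean CPM took 5.64 ± 0.603% of reads (SD, n = 3), the first 100 took 19.8 ± 0.749% and the first 1000 took 53.03 ± 0.504%. Per kilobase of exon, Eef1a1, the factor that brings aminoacyl-tRNAs to the ribosome, was highest at 4372 ± 649 RPKM (SD, n = 3). It was followed by the ferritin light chain Ftl1 at 3682 ± 1101 RPKM, the ribosomal stalk proteins Rplp1 at 2342 ± 168 RPKM and Rplp0 at 2062 ± 243 RPKM, and the translocation factor Eef2 at 1792 ± 448 RPKM. Rpl19, the galectin Lgals1, Rpl23a, the endoplasmic reticulum (ER) chaperone Hsp90b1 and Rpl4 completed the first 10, between 1149 ± 189 RPKM and 1688 ± 127 RPKM. Exons of Rpl23a and Hsp90b1 overlap a gene on the other strand, and whether counting used the strand is not given in the sources used here. Neighbours in this order overlapped within 1 SD, except for Ftl1 and Rplp1, but the SD includes the offset of Ctl MSC 1. Within each library Eef1a1, Ftl1, Rplp1, Rplp0 and Eef2 kept this order. Eef1a1 was at 3638, 4612 and 4867 RPKM and Ftl1 at 2426, 4142 and 4479 RPKM. Rpl23a was above Hsp90b1 in each library, and the remaining neighbours changed order between libraries.

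By reads, the first 20 genes included the cytoplasmic chaperones Hspa8 at 2735, 3098 and 3203 CPM and Hsp90ab1 at 3169, 2522 and 2582 CPM and the nucleolar protein Npm1 at 2223, 2559 and 2665 CPM. The actins Actg1 and Actb reached 3585, 2231 and 2278 CPM and 3117, 1865 and 1980.5 CPM. Both actins were highest in Ctl MSC 1. Ribosomal protein genes supplied 31 of the 100 genes with the highest mean CPM and took 6.57%, 7.45% and 8.06% of reads. The autophagy receptor Sqstm1 stood at 1556, 3248 and 3363 CPM, the ferritin heavy chain Fth1 at 2707, 4167 and 4389.7 CPM and Pabpc1, which coats the poly(A) tail, at 2325, 2833 and 2883 CPM. Tpt1, a small growth-related protein, was at 2124, 2657 and 2919 CPM. Xist, the RNA that coats the inactive X chromosome, was at 2349.8, 3181 and 2243 CPM, while the Y-linked Ddx3y, Eif2s3y, Kdm5d and Uty had no read. The methods describe the donor mice as female.

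**Figure D2:**
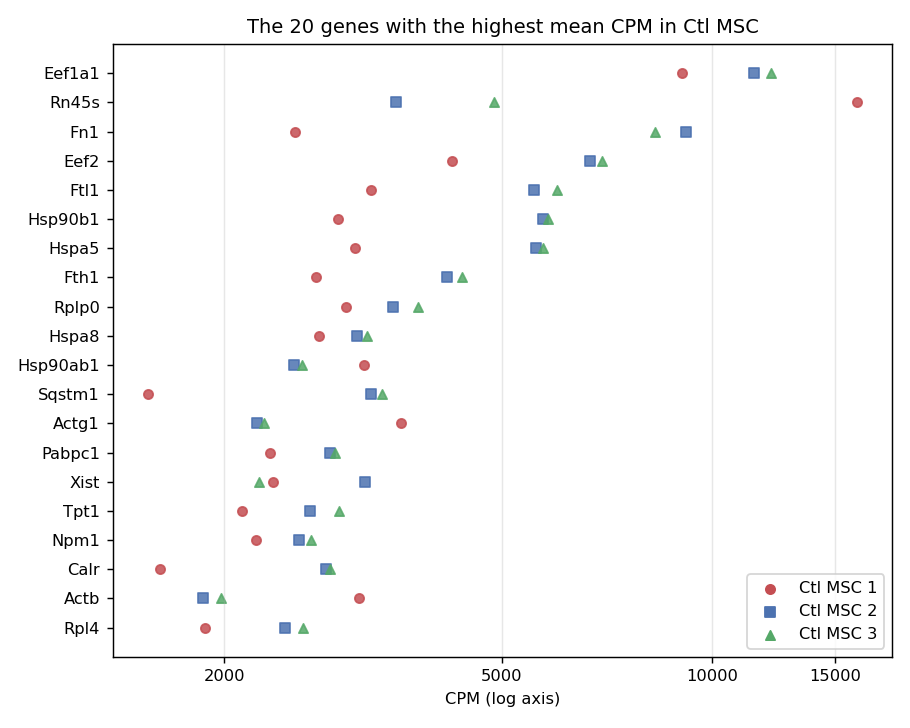
The 20 genes with the highest mean CPM are listed from top to bottom, with 1 point per Ctl MSC library on a log axis of CPM. For most genes the points of Ctl MSC 2 and 3 lie together and that of Ctl MSC 1 apart, below them for Fn1, Hsp90b1, Hspa5 and Sqstm1 and above them for Rn45s, Actg1 and Actb.

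Of the 20 genes with the highest mean CPM, 3 were ER chaperones. These proteins fold secreted and membrane proteins, and their genes are switched on together when unfolded protein gathers in the ER. All 14 listed genes were detected, and their summed level was 8919.8, 16265 and 16680.4 CPM, or 16473 CPM without Ctl MSC 1. Hspa5 (BiP), the main Hsp70 of the ER, reached 3080.1, 5601 and 5728 CPM and Hsp90b1 (GRP94), its Hsp90, reached 2914, 5731 and 5818 CPM. Calr, the lectin chaperone calreticulin, reached 1618, 2797 and 2835 CPM. In each of these genes Ctl MSC 1 was lowest and Ctl MSC 2 and 3 lay within a few percent of each other.

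The ER list also held the factors that respond to stress. Atf4, the transcription factor of the integrated stress response, stood at 645, 866 and 923 CPM, and its targets Ddit3 (CHOP) and Trib3 at 223, 709 and 747 CPM and 83.2, 335 and 339.7 CPM. Trib3 had the widest range of the list, 4.08-fold. Ctl MSC 1 alone lay 2-fold below both others in 5 of the 14 genes, against 7.1% of all genes, and above both in none, against 9.83%. The median ratio of highest to lowest library was 1.72 for the list against 1.42 over all genes.

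The promoters of the most abundant ER chaperones are shown because they carry a known sequence of this pathway. The ER stress element, searched on both strands as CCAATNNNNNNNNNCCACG in the 250 bases before and 50 bases after the annotated start (RefSeq, GRCm38.p6), was found in 3 of 14 promoters of the list, those of Hspa5, Hsp90b1 and Pdia6, and in those of Calr and Canx, which were counted with the class I genes. It was found in 39 of all 32851 promoters of that length (0.119%). All 14 genes had an entry in the table. Each match contains the shorter motif CCAAT, which was found in 37.4% of all promoters. Capitals mark the matches, which begin 65 bases before the start in Hspa5, 212 and 107 bases before it in Hsp90b1, and 162 bases before it in Calr. A match is a description of the letters only.
Hspa5 (chr2:34771840-34772139, plus strand): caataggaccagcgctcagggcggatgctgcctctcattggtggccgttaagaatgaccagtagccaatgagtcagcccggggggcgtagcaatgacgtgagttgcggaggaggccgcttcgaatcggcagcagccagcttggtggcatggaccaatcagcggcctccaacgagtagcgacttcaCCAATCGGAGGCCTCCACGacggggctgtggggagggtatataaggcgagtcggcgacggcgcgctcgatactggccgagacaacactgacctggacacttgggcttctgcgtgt
Hsp90b1 (chr10:86705395-86705694, minus strand): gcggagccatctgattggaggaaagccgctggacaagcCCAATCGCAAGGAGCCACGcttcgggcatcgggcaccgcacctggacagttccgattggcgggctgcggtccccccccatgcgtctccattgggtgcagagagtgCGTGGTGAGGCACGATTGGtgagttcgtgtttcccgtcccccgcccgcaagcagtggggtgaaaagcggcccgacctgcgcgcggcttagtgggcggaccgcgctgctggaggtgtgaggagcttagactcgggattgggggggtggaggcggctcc
Calr (chr8:84846882-84847181, minus strand): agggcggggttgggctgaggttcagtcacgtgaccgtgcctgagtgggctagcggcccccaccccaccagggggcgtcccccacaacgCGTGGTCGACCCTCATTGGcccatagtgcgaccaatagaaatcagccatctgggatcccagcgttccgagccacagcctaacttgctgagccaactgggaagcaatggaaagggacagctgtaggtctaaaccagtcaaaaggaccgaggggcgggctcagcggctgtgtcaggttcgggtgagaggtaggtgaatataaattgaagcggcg

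Matrix genes were examined for stromal identity. Col1a1 and Col1a2, the chains of type I collagen, and Sparc, a collagen-binding glycoprotein, were the markers set here, whereas the study recognised its cells by surface proteins. All 3 were abundant in every library. Not all listed matrix and surface genes were abundant, and Dcn, Lum, Thy1 and Ngfr were low, as given below. Col1a1 (chromosome 11, 94936224 to 94953042 in GRCm38) was at 3329, 675 and 645 CPM, Col1a2 (chromosome 6, 4504814 to 4541544) at 3065, 1652 and 1644 CPM and Sparc (chromosome 11, 55394500 to 55423183) at 2997, 1411 and 1461 CPM. Ctl MSC 1 was highest for each, and the other libraries lay close together. The means without Ctl MSC 1 were 659.9 CPM, 1648 CPM and 1436 CPM. Per kilobase of exon, Sparc stood at 516 ± 238 RPKM, Col1a1 at 236 ± 235 RPKM and Col1a2 at 171 ± 65.8 RPKM. Col1a1 overlapped both others within 1 SD, whereas Sparc and Col1a2 did not overlap each other. Taken library by library, Sparc was the highest of the 3 in each. The ratio of the 2 type I chains was not constant. Per kilobase, Col1a1 and Col1a2 were at 507, 103 and 98.2 RPKM and 247, 133 and 132 RPKM. Col1a1 was the higher chain in Ctl MSC 1 and the lower one in Ctl MSC 2 and 3. The order was the same by CPM, where the chains were close in Ctl MSC 1. Exon length was the union over annotated transcripts, so the size of a difference per kilobase between genes depends on the annotation.

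Most other fibrillar collagens followed the same order of libraries. Col3a1, which co-assembles with type I collagen, was at 884, 99.4 and 99.95 CPM, Col5a1 at 505, 163 and 159 CPM and Col5a2, both minor chains that set fibril width, at 2089.6, 1313 and 1305 CPM. The summed level of the 11 fibrillar collagen genes was 10008, 3957 and 3898 CPM, and 3927 CPM without Ctl MSC 1. Of the 10 with a mean of at least 1 CPM, Ctl MSC 1 alone lay 2-fold above both others in 7 and below in 1, Col11a2, against 9.83% and 7.1% of all genes. The widest range was that of Col2a1, the collagen of cartilage, at 10.1, 0.819 and 1.17 CPM. The median ratio of highest to lowest library in the list was 4.28, against 1.42 over all genes.

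Collagens of basement membrane and of microfibrils differed among themselves in how far the libraries spread. Col4a1 and Col4a2, the chains of basement membrane collagen, were at 451, 425 and 424 CPM and 306, 364 and 359 CPM, a range of 1.06-fold and 1.19-fold. Col6a1, of beaded microfibrils, was at 630.3, 142 and 138 CPM and Col12a1, which decorates fibrils, at 846, 167 and 150.0 CPM. Col15a1 had under 3 reads in every library. Over the 15 genes the sum was 3817, 1865 and 1803 CPM, or 1834 CPM without Ctl MSC 1. Of the 12 with a mean of at least 1 CPM, that library alone lay 2-fold above both others in 5 (9.83% of all genes) and below in 1 (7.1%). Col6a2 had the widest range, 5.88-fold, with 445, 77.6 and 75.7 CPM.

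The enzymes that build and cross-link collagen were all detected. P4hb, a subunit of prolyl hydroxylase, was at 1851, 1539 and 1573 CPM and Serpinh1, the collagen chaperone HSP47, at 1688, 1262 and 1305 CPM. Lox, the lysyl oxidase that cross-links fibrils, was at 3133, 341 and 333 CPM, which was the widest range of the list at 9.40-fold, and 337 CPM without Ctl MSC 1. Whereas Lox was among the 5 of 20 genes with Ctl MSC 1 alone 2-fold above both others (9.83% of all genes), the related Loxl1 at 262, 194 and 199 CPM and Loxl4 at 73.0, 101 and 104 CPM ranged less than 2-fold. The median ratio of the list was 1.38, near the 1.42 of all genes.

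Among the other matrix proteins, fibronectin (Fn1), the scaffold on which collagen is laid, stood at 2525, 9165 and 8273 CPM. It was lowest in Ctl MSC 1, opposite to the type I collagens, and was the only one of the 22 genes of this list with a mean of at least 1 CPM in which that library lay 2-fold below both others. Ctl MSC 1 lay 2-fold above both in 12. Over all genes these shares were 7.1% below and 9.83% above. Thbs2 and Thbs1, adhesive thrombospondins, were at 2787, 1756 and 1720.2 CPM and 1946, 359 and 321 CPM. The small proteoglycan biglycan (Bgn) was at 1984, 1492 and 1527 CPM, but its relative decorin (Dcn) was at 5.32, 1.20 and 1.11 CPM. Lum, another member of that family, had under 3 reads in every library, and Eln, which codes for elastin, had 0, 2 and 3 reads. Mfap5 had the widest range of the list at 12.5, 1.15 and 1.56 CPM. The sum over the 25 genes was 16820.5, 16147 and 15220.0 CPM, with nearly equal totals made up of unlike genes.

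Per kilobase of exon, the matrix turnover genes were led by Timp2 and Timp3, inhibitors of metalloproteinases, at 185 ± 47.6 RPKM and 175 ± 39.7 RPKM. These overlapped within 1 SD, but Timp2 was the higher in Ctl MSC 1 and Timp3 in Ctl MSC 2 and 3. By library, Timp3 and Timp2 were at 1055, 1626 and 1603 CPM and 935, 615 and 612 CPM. Mmp14, a membrane-bound collagenase, was at 298, 328 and 333 CPM, Mmp2 at 142, 116 and 121 CPM and Mmp13, a collagenase of bone, at 104, 87.9 and 84.8 CPM. These 5 genes ranged less than 2-fold. Timp1, a further inhibitor, was at 203, 48.5 and 48.4 CPM, Mmp3 (stromelysin) at 22.3, 3.33 and 4.005 CPM and Mmp11 at 40.7, 152 and 149 CPM, the last of them lowest in Ctl MSC 1. Of the 13 genes with a mean of at least 1 CPM, 5 had a 2-fold range, against 21.5% of all genes, with Ctl MSC 1 alone above both others in 3 (9.83% of all genes) and below in 1 (7.1%). Mmp9 and Mmp10 had under 3 reads in every library. The sum over the 15 genes was 3484, 3336 and 3308 CPM.

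The cytoskeleton list followed the collagens. Besides the actins, Vim, the intermediate filament of mesenchymal cells, was at 3768, 1116 and 1122 CPM, and Tuba1b, an alpha-tubulin, had the widest range at 608, 150.3 and 154 CPM. Flna, which cross-links actin, was at 1584, 1650.1 and 1488 CPM, a range of 1.11-fold. Ctl MSC 1 alone was 2-fold above both others in 8 of 14 genes (9.83% of all genes) and below in none (7.1%). The sum was 17919, 10091 and 10013 CPM, or 10052 CPM without Ctl MSC 1.

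Surface proteins used to recognise MSCs were examined next. Cd44, the receptor for hyaluronan, was at 549, 147 and 143 CPM, Eng (CD105) at 145, 161 and 160.5 CPM and Nt5e (CD73) at 11.6, 20.7 and 17.6 CPM. Thy1 (CD90) had 1 read in the 3 libraries together, and its level was not distinguishable from 0 at this depth. In the study's flow cytometry, by contrast, control cells were reported to express CD90, as well as CD44, CD73 and CD105. The reagent list gives the CD90 antibody as anti-CD90.1, and whether it binds the Thy1 protein of these mice was not tested. Why transcript and stain differ for Thy1 was likewise not tested. Pecam1 (CD31), an endothelial protein, had 2, 3 and 4 reads, and Ptprc (CD45), carried by nearly all blood cells, had none. Eng ranged 1.11-fold, whereas Cd44 was more than 2-fold higher in Ctl MSC 1 than in both others. Per kilobase of exon Cd44 and Eng stood at 41.3 ± 34.4 RPKM and 38.5 ± 2.26 RPKM. These means were close, but the order reversed between libraries, with Cd44 higher in Ctl MSC 1 and Eng higher in Ctl MSC 2 and 3. Both lay above Nt5e at 1.93 ± 0.536 RPKM, although the interval of 1 SD around Cd44 was wide.

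Per kilobase of exon, Itgb1, the shared beta chain of matrix-binding integrins, and Ly6a (Sca-1), a marker of mouse MSCs, were highest of the surface genes at 299 ± 13.4 RPKM and 295 ± 208 RPKM. By library, Itgb1 was at 1283, 1191 and 1186 CPM and Ly6a at 646, 209 and 212 CPM. Pdgfra was at 192, 49.2 and 46.8 CPM and Pdgfrb at 336, 266 and 260.4 CPM, both being receptors of platelet-derived growth factor. Cspg4 (NG2) and Ngfr, markers of pericytes and of marrow stroma, had 3, 1 and 1 reads and 0, 0 and 1 reads. Cd200 had the widest range, 10.4, 1.04 and 1.001 CPM. The sum over the 16 genes was 3496, 2268 and 2246 CPM, or 2257 CPM without Ctl MSC 1. That library alone lay 2-fold above both others in 5 of the 12 genes with a mean of at least 1 CPM (9.83% of all genes) and below in 1 (7.1%).

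Marrow niche cytokines were present in part. Csf1, the growth factor of macrophages, was at 624, 1065 and 1024 CPM, Cxcl12, which holds blood stem cells in the marrow, at 1443, 344 and 334 CPM and Kitl, their growth factor, at 339, 493 and 489 CPM. Ctl MSC 1 was highest for Cxcl12 and lowest for Csf1 and Kitl. Angpt1, a ligand of the endothelial receptor Tek, had the widest range, 41.2, 5.57 and 4.62 CPM. Lepr, the leptin receptor that marks niche stroma in adult marrow, had 26, 9 and 8 reads, and Adipoq, which these niche cells also express, had 2, 0 and 0 reads. The transcription factors Foxc1 and Ebf1, which maintain niche stroma, were at 158, 96.1 and 88.6 CPM and 30.5, 32.1 and 32.1 CPM. The sum over the 15 genes was 2682, 2089 and 2018 CPM.

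For the 3 lineages into which MSCs can differentiate, the regulators Runx2, Sox9 and Pparg were found without most of the mature products. Runx2, the transcription factor that opens the bone programme, was at 42.5, 41.4 and 39.8 CPM, a range of 1.07-fold. Sp7, which acts after Runx2, had 4, 0 and 0 reads, and of the bone matrix genes Ibsp, Mepe and Sost had no read. Bglap (osteocalcin) and Dmp1 had 0, 0 and 1 reads and 3, 0 and 0 reads. Alpl, the phosphatase of mineralising cells, had the widest range at 3.53, 0.710 and 0.501 CPM. The exception was Spp1 (osteopontin) at 1356, 445 and 468 CPM, which other cells also make and which held most of the summed 1431, 520.1 and 536 CPM of the list, or 528 CPM without Ctl MSC 1.

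Sox9, the regulator of cartilage, was at 59.0, 35.8 and 32.7 CPM, while the cartilage genes Acan, Col9a1, Matn1 and Lect1 had no more than 1 read. Col11a2 and Sox5 were at 1.55, 12.7 and 8.40 CPM and 21.8, 3.004 and 2.22 CPM. The sum of the 13 cartilage genes was 106, 59.8 and 51.7 CPM. For fat, Pparg, its main regulator, was at 80.6, 30.2 and 30.6 CPM and Cebpb at 83.9, 104 and 112 CPM, with the lipase Lpl at 117, 151 and 148 CPM and the fatty acid carrier Fabp4 at 129, 51.4 and 54.0 CPM. Unlike Lpl and Fabp4, the other genes of mature fat cells, namely Adipoq, Plin1, Cidec, Cd36, Lep, Cfd and Retn, had under 3 reads in every library. The sum of the 13 fat genes was 446, 355 and 366 CPM.

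Contractile genes were found without the late products of smooth muscle. Acta2, the actin of smooth muscle and myofibroblasts, was at 581, 482 and 516 CPM and Cnn2 and Tpm1, which bind actin filaments, at 452, 246 and 255 CPM and 912, 349.8 and 362 CPM. Myh11, the myosin of mature smooth muscle, had 0, 2 and 5 reads, and Des, its intermediate filament, had 1, 4 and 3 reads. Cnn1, another smooth muscle gene, had the widest range, 30.3, 4.48 and 5.45 CPM. The sum over the 13 genes was 2660.5, 1442 and 1511 CPM, or 1477 CPM without Ctl MSC 1. Of the tendon genes, Scx and Mkx were at 10.95, 1.53 and 1.95 CPM and 8.48, 3.44 and 2.61 CPM, and Tnmd and Thbs4 had under 3 reads in every library. The 6 tendon genes summed to 22.8, 5.68 and 5.23 CPM, or 5.45 CPM without Ctl MSC 1. In bulk samples such as these, fewer cells of a type and less RNA per cell cannot be told apart.

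Genes of other lineages were low, and most of their defining genes were at or near the limit of detection. The 16 genes shared by blood cells summed to 7.86, 10.9 and 9.96 CPM. Of this, Spn, which codes for CD43, gave 4.77, 6.34 and 6.12 CPM and Itgb2, an integrin chain of leukocytes, 2.35, 3.82 and 2.78 CPM. Of the 16, 9 had under 3 reads in every library and 4 of these, Ptprc, Cd48, Laptm5 and Ikzf1, had none. The 15 macrophage genes summed to 15.8, 15.8 and 13.4 CPM, mostly Cd68 at 1.67, 9.89 and 7.45 CPM and Cd14 at 11.9, 3.44 and 3.56 CPM, genes of lysosomes and of lipopolysaccharide sensing that are not confined to macrophages. The defining Emr1 (F4/80) and the complement genes C1qa, C1qb and C1qc had no read.

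Lymphoid and granulocyte genes were lower still. The 11 T and NK cell genes summed to 0.866, 4.64 and 4.78 CPM, most of it Lck at 0.681, 4.37 and 4.62 CPM, while 9 of the 11, Cd3e, Cd3d and Cd3g among them, had under 3 reads in every library. Lck, a kinase of T cells, was the only one of these genes with a mean of at least 1 CPM, and was lowest in Ctl MSC 1. The 8 B cell genes summed to 0.0619, 0.273 and 0.222 CPM and the 12 granulocyte and mast cell genes to 0.124, 0.273 and 0.334 CPM. Of the 11 dendritic cell and MHC class II genes, Zbtb46 was at 3.34, 5.24 and 6.17 CPM, and the class II genes H2-Aa, H2-Ab1 and H2-Eb1 with their activator Ciita had 1 read in all 3 libraries together. Cd86 had no read and Cd80 had 5, 1 and 2 reads.

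The erythroid and megakaryocyte genes summed to 3.47, 3.44 and 2.67 CPM, mostly Itga2b at 3.16, 3.004 and 2.28 CPM, with no read of the globin genes Hba-a1, Hba-a2, Hbb-b1 and Hbb-b2. Reads shared by near-identical globin copies would have been set aside by the counting. The endothelial genes summed to 3.47, 8.25 and 7.56 CPM, and Vwf and Kdr, the receptor of VEGF, were at 0.495, 3.44 and 3.11 CPM and 0.557, 2.46 and 2.73 CPM, while Cdh5, Tie1, Emcn, Cldn5 and Robo4 had under 3 reads in every library. Epithelial genes summed to 7.74, 4.48 and 4.45 CPM, with Krt19 at 6.50, 2.35 and 3.39 CPM and no read of Epcam. Neural genes reached 22.2, 10.54 and 9.85 CPM, of which Stmn2, a regulator of microtubules, was 10.8, 1.75 and 2.73 CPM. Striated muscle and pluripotency genes summed to 6.003, 2.68 and 2.34 CPM and 0.309, 0.546 and 0.222 CPM.

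**Figure D3:**
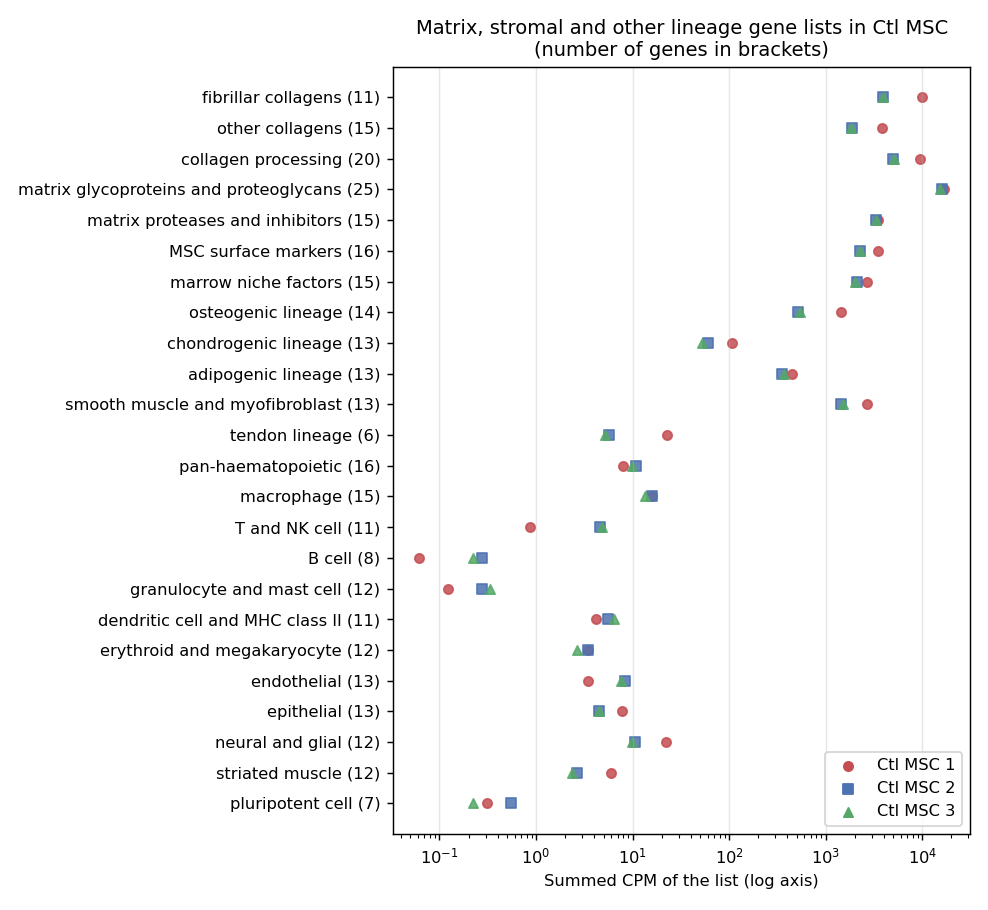
Summed CPM of each gene list is shown on a log axis, 1 point per Ctl MSC library, with the number of genes in brackets. Matrix, surface marker and niche lists lie above 1000 CPM in every library, while the lists of blood, endothelial, epithelial, neural, muscle and pluripotent cells lie under 25 CPM.

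Transcription factors that record position in the limb were found in all 3 libraries. Femur and hindlimb tissue forms under Pitx1 and Tbx4 and the forelimb under Tbx5, and the Hox genes at the 5′ end of each cluster pattern the far segments. Pitx1 (chromosome 13, 55825051 to 55836192) was at 26.9, 21.1 and 22.6 CPM, Tbx4 had 6, 8 and 5 reads and Tbx5 had 1, 0 and 0 reads. Prrx1, a factor of limb mesenchyme, was at 541, 275 and 274 CPM, and Tbx15 and Twist1 at 103, 69.7 and 75.6 CPM and 31.1, 28.1 and 29.3 CPM. Prrx1 was highest in Ctl MSC 1, with a mean of 275 CPM without it.

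The Hox genes differed by cluster. Hoxa11 and Hoxa10 stood at 68.8, 61.9 and 64.1 CPM and 44.8, 32.2 and 31.9 CPM, with 24.8% of the exon bases of Hoxa11 overlapping Hoxa11as on the opposite strand. Hoxc10 was at 56.3, 47.0 and 50.0 CPM, while Hoxc11, its neighbour, had 4, 11 and 7 reads and Hoxc13 was at 16.3, 52.8 and 58.1 CPM. The 6 Hoxd genes of the list, Hoxd8 to Hoxd13, had 1 read in all 3 libraries together, and Hoxb13 had none. Hoxb9 had the widest range, 0.309, 4.59 and 4.28 CPM. Hoxa11 and Hoxc10 ranged 1.11-fold and 1.20-fold, less than the median of all genes, whereas Hoxc13 was more than 2-fold lower in Ctl MSC 1 than in both others. Over the 15 position genes with a mean of at least 1 CPM, Ctl MSC 1 alone lay 2-fold above both others in 1 (9.83% of all genes) and below in 2 (7.1%), and the median ratio was 1.48 against 1.42 over all genes.

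**Figure D4:**
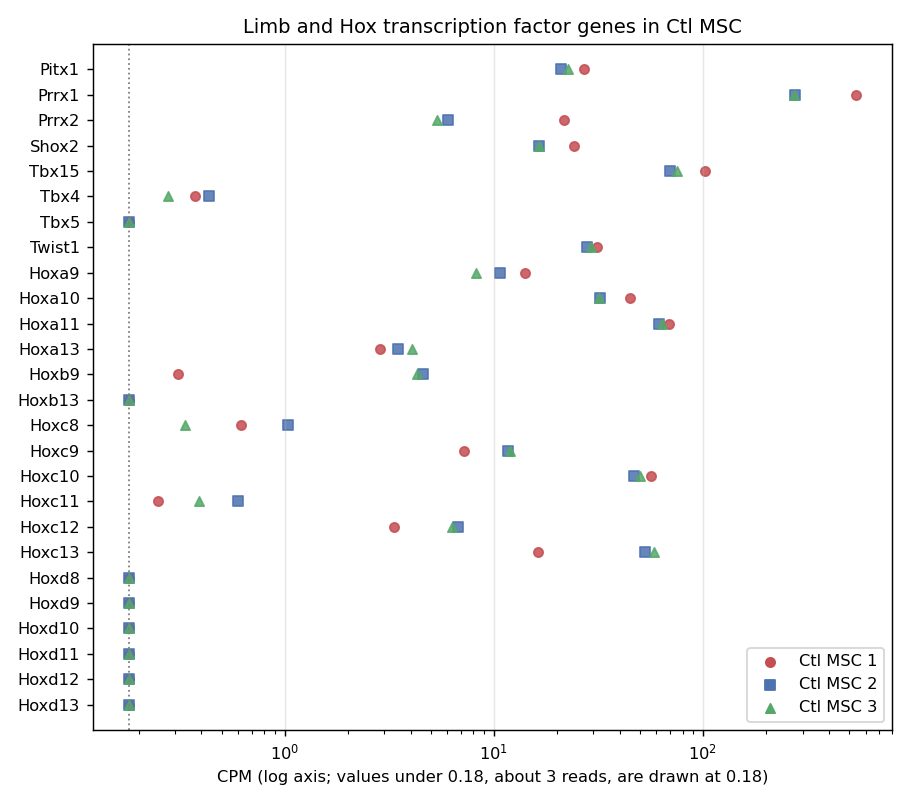
CPM of 26 limb and Hox transcription factor genes is shown on a log axis, 1 point per Ctl MSC library, with values under 0.18 CPM (about 3 reads) drawn at the dotted line. Prrx1, Tbx15, Hoxa11, Hoxc10 and Hoxc13 lie to the right, and Tbx5, Hoxb13 and the Hoxd genes lie on the line.

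The genes of antigen presentation, which the study set out to alter, were present at baseline except for the thymic subunit. MHC class I presents peptides cut by the proteasome, carried into the ER by TAP and loaded with the help of tapasin, calreticulin and Pdia3. The class I heavy chains H2-K1 and H2-D1 were at 112, 124 and 129 CPM and 111, 119.5 and 125 CPM and their light chain B2m at 614, 591 and 609.8 CPM, with ranges of 1.15-fold, 1.12-fold and 1.04-fold. The peptide transporter genes Tap1 and Tap2 were at 21.0, 10.54 and 11.3 CPM and 21.4, 19.9 and 20.5 CPM, and Tapbp (tapasin) at 155, 65.1 and 66.3 CPM. Pdia3 and the lectin chaperone Canx were at 1192, 1600.2 and 1666 CPM and 1491, 2025 and 2006 CPM. Tap1 and Tapbp were highest in Ctl MSC 1, while Tap2 ranged 1.07-fold.

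Of the subunits carried by the study's other construct, Psmb11 (chromosome 14, 54621433 to 54629556), found in thymic epithelium, had 2, 4 and 2 reads. Psmb9, an immunoproteasome subunit with exons that overlap Tap1 on the other strand, was at 3.47, 0.819 and 0.834 CPM and Psmb10 at 28.5, 9.01 and 8.45 CPM. Both were highest in Ctl MSC 1. The T cell ligands were low: Cd274 (PD-L1) was at 2.66, 4.86 and 5.73 CPM. Over the 15 class I genes with a mean of at least 1 CPM, Ctl MSC 1 alone lay 2-fold above both others in 4 (9.83% of all genes) and below in none (7.1%), and the median ratio was 1.75 against 1.42 over all genes. The sum over the 16 genes ran the other way, at 5444, 7431 and 7542 CPM, lowest in Ctl MSC 1. Most of that sum was Calr, Canx and Pdia3, chaperones of the ER that were each lowest in Ctl MSC 1. The sum therefore does not describe the other genes of the list.

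Secreted proteins that the study assayed were also read. Vegfa, the growth factor of vessels, was at 164, 389 and 317 CPM, lowest in Ctl MSC 1, and Ccl2, which attracts monocytes, at 158, 17.4 and 17.3 CPM, highest in that library. Cx3cl1 was at 25.9, 21.5 and 17.7 CPM, Ccl9 at 21.3, 2.46 and 4.005 CPM, Cxcl1 at 8.17, 1.803 and 2.34 CPM and Cxcl5 at 2.54, 0.219 and 0.111 CPM. The mean of Ccl2 without Ctl MSC 1 was 17.3 CPM, and its range of 9.16-fold was the widest of these genes with a mean of at least 1 CPM. The 7 genes of the list, which also held Cxcl12, summed to 1823, 776 and 693 CPM, or 734 CPM without Ctl MSC 1. Cxcl12, whose levels are given with the niche cytokines, made up most of the sum in Ctl MSC 1. The higher sum of that library came mostly from Cxcl12.

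Genes of cell division had the highest median ratio between libraries of the 33 lists. The 28 genes, which copy DNA and part the chromosomes, summed to 3677, 786 and 795 CPM, or 790.4 CPM without Ctl MSC 1. Top2a, which untangles chromosomes, was at 499.6, 49.4 and 45.9 CPM and Mki67, which coats them in mitosis, at 224, 19.1 and 16.6 CPM. Ccna2, a cyclin, was widest at 139, 7.21 and 6.79 CPM, and Plk1, a mitotic kinase, was at 68.4, 4.48 and 4.39 CPM. Ctl MSC 1 alone lay 2-fold above both others in 26 of 28 genes, against 9.83% of all genes, and the median ratio was 9.29 against 1.42.

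The exceptions were Mcm2 and Mcm7, subunits of the helicase that licenses origins of replication, but not all of its subunits. Exons of Mcm7 overlap Ap4m1 and Cops6 on the other strand, and whether counting used the strand is not given. Mcm2 was at 174, 147 and 151 CPM and Mcm7 at 159, 117 and 121 CPM, whereas Mcm5 and Mcm6, which sit in the same ring, were at 120.4, 19.0 and 18.7 CPM and 221, 55.01 and 62.1 CPM. Pcna, the sliding clamp, was at 249, 103 and 107 CPM. All 28 genes were detected in Ctl MSC 2 and 3 too. Of the inhibitors of the cycle and p53 targets, 2 of 11 had a 2-fold range, a share near the 21.5% of all genes. Cdkn2a was at 348, 302 and 328 CPM, Trp53 at 193, 169 and 170.4 CPM, Mdm2 at 88.6, 148 and 142 CPM and Cdkn2c, the widest of this list, at 27.2, 5.85 and 7.01 CPM. Gene counts cannot separate the 2 products of Cdkn2a. The 11 inhibitors and p53 targets summed to 963, 878 and 904 CPM, with Ctl MSC 1 alone 2-fold above both others in those 2 (9.83% of all genes).

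**Figure D5:**
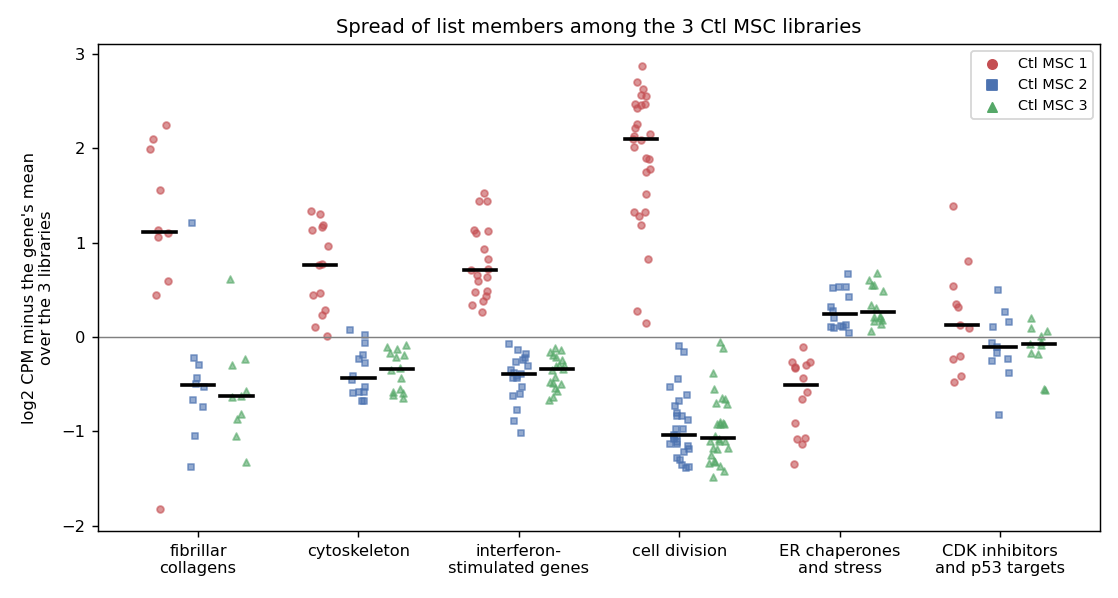
For 6 gene lists, each point is 1 gene with a mean of at least 1 CPM in 1 Ctl MSC library, as log2 CPM minus the mean of that gene over the 3 libraries, and black bars are medians. The medians of Ctl MSC 1 lie above the others for collagens, cytoskeleton, interferon-stimulated and cell division genes, below them for ER genes, and close to them for CDK inhibitors and p53 targets.

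The promoters of Plk1 and Ccnb2, mitotic genes with a 15.6-fold and 15.1-fold range, are shown for the cell cycle homology region, a 6-base element of genes that are read in mitosis. Searched as TTTGAA on both strands in the same window, it was found in 11 of 24 promoters of the cell division list, for 23 of whose 28 genes a sequence was at hand, and in 17.9% of all promoters. CCAAT was found in 21 of the 24, against 37.4% of all promoters. Capitals mark TTTGAA, which begins 30 bases after the start in Plk1, and 167 bases before and 4 bases after it in Ccnb2. The promoters of Ccnb1 and Birc5, in which Ctl MSC 1 was likewise highest, held no TTTGAA in this window.
Plk1 (chr7:122159185-122159484, plus strand): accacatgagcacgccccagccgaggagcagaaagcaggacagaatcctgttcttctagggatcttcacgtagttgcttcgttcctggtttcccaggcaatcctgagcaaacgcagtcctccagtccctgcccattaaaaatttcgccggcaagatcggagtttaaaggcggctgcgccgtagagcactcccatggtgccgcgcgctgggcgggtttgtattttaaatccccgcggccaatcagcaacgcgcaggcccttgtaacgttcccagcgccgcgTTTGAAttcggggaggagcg
Ccnb2 (chr9:70421505-70421804, minus strand): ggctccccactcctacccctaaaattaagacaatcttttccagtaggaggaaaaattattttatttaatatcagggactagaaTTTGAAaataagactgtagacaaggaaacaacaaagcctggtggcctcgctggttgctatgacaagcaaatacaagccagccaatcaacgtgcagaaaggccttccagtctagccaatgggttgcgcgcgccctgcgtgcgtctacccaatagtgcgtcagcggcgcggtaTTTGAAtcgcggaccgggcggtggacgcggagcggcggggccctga

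Interferon-stimulated genes, which cells switch on against viruses, were expressed in every library. The 20 genes summed to 1533, 749.9 and 763 CPM, or 757 CPM without Ctl MSC 1. Bst2, which tethers virus particles, was at 206, 140.2 and 151 CPM, Ifit2 at 131, 104 and 95.5 CPM and Ifit1, which binds viral RNA, at 190.5, 41.2 and 44.1 CPM. Isg15, a ubiquitin-like protein, was at 108, 32.2 and 35.4 CPM. Mx2 had the widest range, 5.69, 1.04 and 1.56 CPM, and Mx1 had 12, 6 and 9 reads. Of the 19 genes with a mean of at least 1 CPM, Ctl MSC 1 alone lay 2-fold above both others in 10 (9.83% of all genes) and below in none (7.1%), and the median ratio was 2.13 against 1.42 over all genes.

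The promoters of Ifit1 and Isg15 are shown for the interferon-stimulated response element. Searched as GAAANNGAAA on both strands, it was found in 10 of 17 promoters of the list, from 15 of its 20 genes, and in 3.44% of all promoters. Capitals mark the matches, which overlap in Isg15 and begin 78, 72 and 66 bases before its start, and which lie on the other strand in Ifit1, 104 and 85 bases before its start. None of the 8 promoters found for the fibrillar collagen genes held this element or the ER stress element.
Ifit1 (chr19:34640639-34640938, plus strand): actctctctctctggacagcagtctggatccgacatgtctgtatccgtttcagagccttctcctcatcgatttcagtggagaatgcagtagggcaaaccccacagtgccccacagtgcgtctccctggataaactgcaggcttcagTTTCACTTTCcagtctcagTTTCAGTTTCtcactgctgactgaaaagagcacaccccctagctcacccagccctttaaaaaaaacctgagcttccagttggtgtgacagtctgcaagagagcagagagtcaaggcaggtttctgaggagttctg
Isg15 (chr4:156200769-156201068, minus strand): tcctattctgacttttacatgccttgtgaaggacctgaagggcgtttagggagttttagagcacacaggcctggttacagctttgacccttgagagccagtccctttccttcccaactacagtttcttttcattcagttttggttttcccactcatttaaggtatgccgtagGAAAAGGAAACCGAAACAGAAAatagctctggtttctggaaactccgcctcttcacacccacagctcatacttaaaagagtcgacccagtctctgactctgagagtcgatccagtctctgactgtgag

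The genes that set each library furthest apart were ranked among those with a mean of at least 20 CPM. Ctl MSC 1 was furthest above both others for Anxa8, an annexin, at 113, 4.32 and 4.73 CPM, followed by Cdca3, Ccna2 and 2810417H13Rik, which act in the cell cycle. Ptn, a secreted growth factor, was at 188, 10.4 and 11.1 CPM and Aspn, a small matrix proteoglycan, at 292, 17.3 and 17.5 CPM. Hmmr and Birc5, both of the mitotic spindle, completed the 8. Ctl MSC 1 was furthest below for Avil, an actin-binding protein, at 7.98, 197 and 189.8 CPM, and for Sspo, Chchd10 and Ppef1 at 2.60, 66.6 and 48.6 CPM, 4.83, 84.8 and 92.2 CPM and 14.4, 217 and 233 CPM. P2rx3, an ATP-gated channel of sensory neurons, was at 3.09, 46.1 and 41.9 CPM, Atp2a3, an ER calcium pump, at 4.08, 54.6 and 52.0 CPM, Nrip2 at 1.98, 28.5 and 32.1 CPM and Gpr141 at 2.60, 32.1 and 33.5 CPM.

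For the other libraries these distances were small. Ctl MSC 2 was furthest above both others for the nuclear RNA Neat1, at 67.2, 196 and 74.2 CPM, for Leng8 at 68.4, 173 and 88.0 CPM and for the immediate early gene Fos at 14.1, 52.9 and 27.8 CPM, and then for Ogt at 151, 284 and 160.2 CPM. It was furthest below for Lars2 at 965, 642 and 925 CPM. Ctl MSC 3 was furthest above for Commd7 at 31.5, 34.2 and 41.2 CPM and furthest below for 2610203C20Rik and Arglu1, at 41.1, 19.0 and 10.1 CPM and 79.8, 73.7 and 49.6 CPM. Among these genes, with a mean of at least 20 CPM, the largest ratio to the nearest other library was 2.64 for Ctl MSC 2 and 1.88 for Ctl MSC 3, against 23.8 for Ctl MSC 1. By chromosome and library, the median log2 deviation of the genes lay between -0.05 and 0.07.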

How the data were processed

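Polyadenylated RNA of the 3 control libraries was sequenced by the authors. Reads were aligned to mm10 and assigned to genes by Htseq-count. The deposited values are raw counts per gene symbol, without normalization. The submitters' processing notes name CASAVA 1.8.2, Trimmomatic 0.35 and TopHat2 2.1.0. The Htseq-count version, gene annotation and strand setting are not given in the sources used here. The 5 summary rows (reads with no feature, ambiguous or not unique), 17.0% to 20.8% of listed reads, were left out. Because reads that map to several places were set aside, genes with near-identical copies, such as globins and ribosomal proteins with pseudogenes, read low. Ly6g, Hbb-bs, Hbb-bt and genes of the mitochondrial genome were not analysed here.

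Counts were scaled to 1000000 reads (CPM) over 23420 genes per library with Python 3.11.15 and pandas 2.3.3. Symbols were matched to GENCODE for GRCm38 (21777 directly, 1249 by an older symbol, 394 not matched), and union exon length gave RPKM. edgeR 4.0.16 in R 4.3.3 estimated the common coefficient of variation with an intercept only, over genes with a mean of at least 1 CPM. This step and the count of 2-fold genes were tested on simulated data. Pairs of libraries were compared by a chi-square on 1 degree of freedom per gene with at least 10 reads, to see whether any was deposited more than once. One group has no contrast, so no test between groups was made.

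The named genes are Col1a1, Col1a2 and Sparc, the 20 highest by mean CPM and 10 highest per kilobase, per list the most abundant members, those under 3 reads, those whose protein the study measured and the one with the widest range, and up to 8 per library furthest from both others at a mean of at least 20 CPM. One gene that this rule names is not reported here. Members of lists named outside this rule were chosen after their values were seen. The libraries and the 33 lists were chosen with earlier results of these data known. Values under 3 reads were set to 3 reads in ratios. Alternatives were other scalings (TMM, upper quartile and size factors of DESeq2 1.42.0), other denominators, filters and folds, and each library left out in turn. Promoter sequences are from RefSeq.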

Additional observations from a re-analysis of the deposited data

How the results depend on the processing

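No paired analysis was possible because the values come from no test and a single group of 3 libraries was used. Counting the summary rows into the denominator gave 4.57%, 16.0% and 42.9% of reads for the first 10, 100 and 1000 genes, and 7.74 CPM for the sum of genes shared by blood cells in place of 9.56. Leaving out each library in turn gave 52.8% to 53.6% for the first 1000 genes. Per kilobase and rescaled to the same total, fibrillar collagens summed to 2351 in place of 5954 and interferon-stimulated genes to 1752 in place of 1016. Without the 10 most abundant genes, which include Hspa5 and Hsp90b1, the ER list summed to 4596 in place of 13955 CPM. The coefficient of variation between libraries ranged from 0.0475 to 0.420 and the number of genes with a 2-fold range from 47 to 2307 as each library was left out, both lowest without Ctl MSC 1. That number was 1467 of the genes with a mean of at least 10 CPM, 5053 at 1.5-fold and 723 at 4-fold. Without Ctl MSC 1 the osteogenic list summed to 528 CPM in place of 829 and the tendon list to 5.45 CPM in place of 11.2. Of 27 other lists, all moved by less than 1 SD under TMM, DESeq2 or upper quartile scaling. Of these lists 8 moved further with the summary rows, 17 per kilobase and 3 without the 10 most abundant genes. At this depth genes under about 0.18 CPM cannot be told from 0, and the 3 libraries hold a spread that is mostly that of 1 of them.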

Other observations

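The gene groups in these paragraphs were chosen after the values were seen, and their levels are a description. Taken by whole cluster, the Hoxa and Hoxc genes were read and the Hoxb and Hoxd genes were near 0. The 11 Hoxa genes summed to 157, 141 and 137 CPM and all were detected in every library. The 9 Hoxc genes summed to 99.5, 146 and 153 CPM, with Hoxc6, a gene of the middle of the cluster, at 12.7, 23.8 and 25.03 CPM beside Hoxc10 and Hoxc13. The 10 Hoxb genes summed to 0.866, 5.24 and 5.34 CPM, most of it Hoxb9 in Ctl MSC 2 and 3 but not in Ctl MSC 1, where that gene was at 0.309 CPM. The 9 Hoxd genes summed to 0.0619, 0 and 0.0556 CPM, that is 2 reads in all, and 7 of them had none.

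Genes that supply amino acids and charge tRNAs were abundant in all libraries. The 20 cytoplasmic aminoacyl-tRNA synthetase genes, which load each tRNA with its amino acid, summed to 6103, 7675 and 7711 CPM and were all detected. Per kilobase of exon, Nars, for asparagine, was highest at 262 ± 56.3 RPKM (SD, n = 3), followed by Gars, for glycine, at 212 ± 22.0 RPKM and Rars, for arginine, at 147 ± 33.0 RPKM. Nars was at 857, 1272 and 1292 CPM by library. Ctl MSC 1 was lowest in 15 of the 20, among them Wars, for tryptophan, at 94.1, 191 and 196 CPM, the only one in which it lay 2-fold below both others (7.1% of all genes). It was highest in 5, among them Kars and Hars at 284, 175 and 183 CPM and 147, 82.5 and 89.1 CPM. The shares of all genes in which it was lowest or highest were not counted, so these counts do not set the group apart.

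The 10 genes of asparagine, serine, proline and mitochondrial folate synthesis summed to 2998, 4388 and 4414 CPM. Phgdh, the first enzyme of serine synthesis, was at 411, 456 and 472 CPM and Shmt2, which passes its carbon to folate in mitochondria, at 442, 478 and 484 CPM. Aldh1l2, a mitochondrial folate dehydrogenase, was at 471, 1471 and 1416 CPM and Pycr1, the last enzyme of proline synthesis, at 21.2, 56.4 and 57.4 CPM. Ctl MSC 1 lay 2-fold below both others in these last genes only (7.1% of all genes), and was lowest in 8 of the 10. The share of all genes in which it was lowest was not counted, so the latter count does not set the group apart.

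Of 6 noncoding RNAs with a mean of at least 1 CPM, 4 were highest in Ctl MSC 2. Only Neat1 lay 2-fold above both others there (0.13% of all genes). The share of all genes in which Ctl MSC 2 was highest was not counted, so the first count does not set the group apart. Malat1, an RNA of nuclear speckles, was at 886, 1438 and 923 CPM, Xist at 2349.8, 3181 and 2243 CPM and Neat1, the scaffold of paraspeckles, at 67.2, 196 and 74.2 CPM, each highest in Ctl MSC 2. Gas5, a host of small nucleolar RNAs, was at 310.4, 459.6 and 449 CPM, with Ctl MSC 2 and 3 close together. Snhg1 was highest in Ctl MSC 3, at 98.6, 106 and 117 CPM. Kcnq1ot1, an imprinted RNA, was highest in Ctl MSC 1, at 15.5, 11.03 and 7.84 CPM. Meg3, another imprinted RNA, had no read in any library, which allows up to 0.186 CPM.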
